A study of Homo sapiens with 4 samples.

Results

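ETS1, FLI1, ERG and ETS2 encode transcription factors of the ETS family, and they lie as neighbouring pairs on chromosome 11 (ETS1 and FLI1) and chromosome 21 (ERG and ETS2). Their contacts were taken from H3K27ac HiChIP libraries of IMR90 cells as every listed interaction with an anchor overlapping chr11:127000000-128750000 or chr21:39400000-40300000 (hg19). This gave 4161 of 1330388 interactions over 4 libraries, and 95 of 79742 anchor regions after overlapping anchors of all libraries were merged. The genes and both windows were chosen with the contact counts of these same libraries in view, so the ratios below describe the libraries and are not tests.

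In HiChIP, DNA ends that sit near each other in crosslinked nuclei are ligated, and the ligated fragments bound by an antibody are sequenced. The antibody here recognised H3K27ac, the acetyl mark that active promoters and enhancers carry on histone H3. A paired-end tag (PET) is a read pair that joins one anchor with another. The number of PETs at an anchor varies with its acetylation as well as with its contacts, and these cannot be told apart here. IMR90 is a line of diploid lung fibroblasts, here grown at low oxygen. The groups were senescent cells with a hairpin against METTL14 (shMETTL14), senescent cells with a hairpin against METTL3 (shMETTL3), senescent cells with a control hairpin (shcontrol), and control cells labelled wild type. METTL3 and METTL14 form the enzyme that writes N6-methyladenosine on RNA. Senescence, in which cells stop dividing for good, was induced through ER:H-RASG12V, an inducible fusion of the estrogen receptor with an oncogenic RAS protein. The label of the control cells names no hairpin, so shcontrol and control may differ by a hairpin as well as by senescence. METTL4 is written in place of METTL14 in the treatment protocol, and here the genotype was taken as correct. Knockdown of either protein was not measured in these files. The fibroblast label was not checked against marker genes, since contact counts are not expression.

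Each group was 1 library, so no difference has a replicate check. The shMETTL14 library held 936492 PETs, shMETTL3 623930, shcontrol 552029 and control 998378. The share of PETs with an end in either window was 0.533% in shMETTL14, 0.636% in shMETTL3, 0.541% in shcontrol and 0.225% in control. Counts were scaled to 1000000 PETs of the library and are called normalised PETs below, and the range after each ratio is an exact conditional binomial 95% interval that covers counting error only. The senescent libraries share one set of anchors and the control library has another. The senescent set covered 327.2 kb of the chromosome 11 window and the control set 285.8 kb, and on chromosome 21 they covered 191.7 kb and 177.5 kb. Both sets had an anchor in 31 of 61 merged anchors on chromosome 11 and in 15 of 34 on chromosome 21, but with identical ends at only 5 and 1 of them. PETs inside a single anchor are not listed, so a set that splits a stretch into several anchors counts contacts that a single wide anchor does not show.

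ETS proteins share a DNA-binding domain that recognises a GGAA core. ETS1 and ETS2 are close relatives that are phosphorylated downstream of RAS and ERK, and both are known as activators of CDKN2A in senescent fibroblasts. FLI1 and ERG form another pair of close relatives, known mainly from blood and endothelial cells and as fusion partners in Ewing sarcoma and prostate cancer. In the RefSeq order of protein-coding genes, ETS1 and FLI1 lie between KIRREL3 and KCNJ1, and ERG and ETS2 lie between KCNJ15 and PSMG1.

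ETS2 and ERG had entries in the RefSeq promoter table used (GRCh38.p14), and those of ETS2 are shown because its promoter lay inside an anchor in all 4 libraries. Each run is the 250 bases before an annotated start, on the gene's forward strand, with each GGAA core or its reverse complement TTCC in capitals. The first is chr21:38804933-38805182 and the second chr21:38805679-38805928 in GRCh38.p14, not placed on hg19.
ETS2 promoter, first start: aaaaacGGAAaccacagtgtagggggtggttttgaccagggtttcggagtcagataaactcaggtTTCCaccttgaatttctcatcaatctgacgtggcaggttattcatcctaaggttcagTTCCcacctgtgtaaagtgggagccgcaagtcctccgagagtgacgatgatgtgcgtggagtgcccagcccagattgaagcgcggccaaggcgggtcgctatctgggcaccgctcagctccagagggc
ETS2 promoter, second start: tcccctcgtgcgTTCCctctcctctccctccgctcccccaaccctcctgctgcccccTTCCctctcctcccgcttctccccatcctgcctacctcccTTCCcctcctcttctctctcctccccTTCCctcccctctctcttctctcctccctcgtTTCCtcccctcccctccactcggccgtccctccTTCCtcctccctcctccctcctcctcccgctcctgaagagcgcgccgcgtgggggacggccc
The first held 3 cores at 54.4% GC and the second 6 cores at 68.8% GC. A core of these letters lies in 92.7% of 35116 RefSeq promoters of that length. Neither run held CCGGAAGT or its reverse complement, found in 3.42% of all promoters, or the AP-1 motif TGANTCA, found in 6.57%. The 4 annotated ERG starts held 1 to 4 cores each and neither of the other motifs.

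Contacts in both windows were more frequent in senescent shcontrol than in control. On chromosome 11 shcontrol had 2656 normalised PETs and control 988.6, a ratio of 2.69 (2.48 to 2.91). On chromosome 21 shcontrol had 2757 normalised PETs and control 1265, a ratio of 2.18 (2.02 to 2.35). Both knockdown libraries stood above shcontrol on chromosome 11, with 3167 normalised PETs in shMETTL14 and 3183 in shMETTL3. On chromosome 21 they parted, with 2161 in shMETTL14 and 3175 in shMETTL3. The ratio of shMETTL14 over shcontrol was 1.19 (1.12 to 1.27) on chromosome 11 and 0.784 (0.733 to 0.838) on chromosome 21. The ratio of shMETTL3 over shcontrol was 1.20 (1.12 to 1.28) and 1.15 (1.08 to 1.23). Distal contacts were those with no end within 2500 bp of the 5′ end of the ETS1, FLI1, ERG or ETS2 interval. Other starts of these genes and promoters of other genes were not located on hg19, so contacts with an end only there were kept. Over distal contacts, shcontrol over control stood at 2.64 (2.43 to 2.87) on chromosome 11 and 2.48 (2.28 to 2.71) on chromosome 21. For the same distal contacts, shMETTL14 over shcontrol stood at 1.18 (1.10 to 1.26) and 0.742 (0.689 to 0.799), and shMETTL3 over shcontrol at 1.18 (1.10 to 1.27) and 1.18 (1.09 to 1.27).

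**Figure D1:**
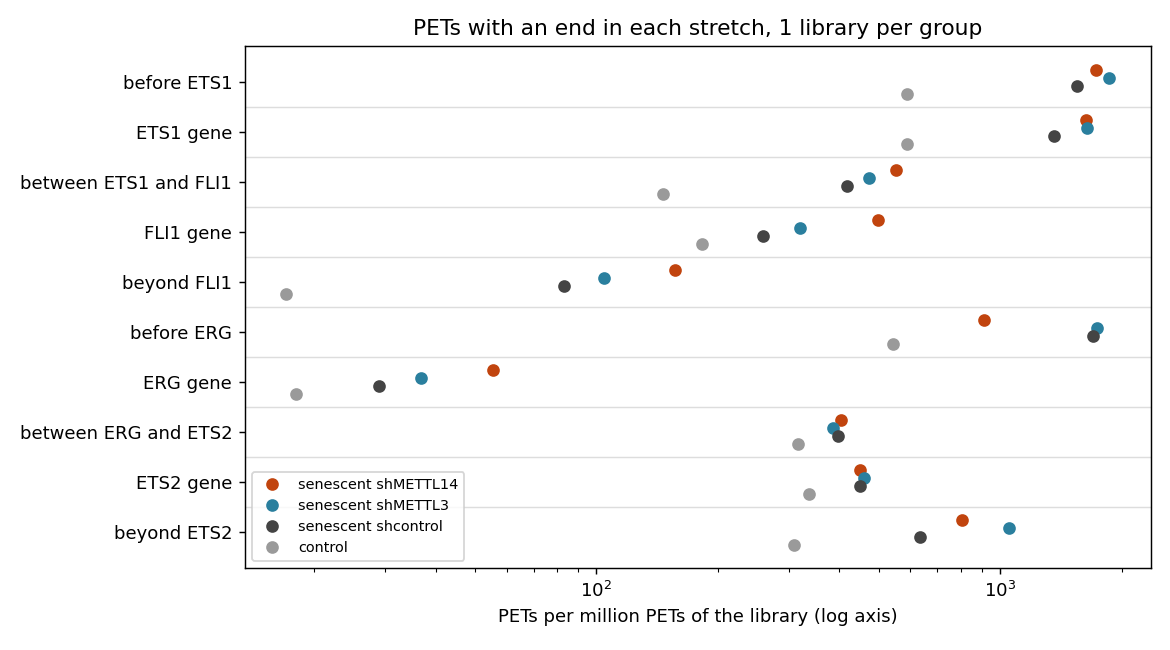
Normalised PETs with an end in each stretch (log axis), for the 4 libraries; stretches are bounded by the gene intervals, and a PET that joins 2 stretches counts in both. The control library has the lowest value in every stretch, while before ERG the shMETTL14 library (915.1) lies between control (542.9) and the other senescent libraries (1734 in shMETTL3 and 1701 in shcontrol).

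Per kb of anchor, ETS2 had the highest contact level of the 4 genes in each library and ERG the lowest. ETS2 stood at 19.1 normalised PETs per kb in shMETTL14, 19.6 in shMETTL3, 19.1 in shcontrol and 12.6 in control. ETS1 stood at 17.3 in shMETTL14, 17.4 in shMETTL3, 14.4 in shcontrol and 5.55 in control. FLI1 stood at 16.7 in shMETTL14, 10.7 in shMETTL3, 8.69 in shcontrol and 5.89 in control. With all PETs counted, FLI1 was thus close to ETS1 in shMETTL14 and in control. In shMETTL14 their exact Poisson intervals overlapped (15.2 to 18.3 for FLI1 and 16.5 to 18.2 for ETS1). They also overlapped in control (5.07 to 6.81 for FLI1 and 5.11 to 6.01 for ETS1). In shMETTL14 and shMETTL3 the intervals of ETS2 and ETS1 also overlapped. ERG stood at 8.54 in shMETTL14, 5.67 in shMETTL3, 4.46 in shcontrol and 3.34 in control, from only 16 to 52 PETs. In control its interval (1.98 to 5.27) overlapped those of ETS1 and FLI1. The senescent ETS1 levels include contacts inside 1 merged anchor, which the single ETS2 anchor cannot show. Without them ETS1 had 1298 normalised PETs in shMETTL14 in place of 1634, while FLI1 kept 498.7. In shcontrol ETS1 had 1033 in place of 1360. In shMETTL3 it had 1245 in place of 1641. Levels per kb were not computed without these contacts, but the senescent ETS1 levels would be lower over the same anchor length. The senescent overlaps of ETS1 with FLI1 and ETS2 were seen only with these contacts counted and may not hold without them.

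ETS1 occupies chr11:128328656-128457453 and is read toward lower positions. PETs with an end in the gene numbered 1530 in shMETTL14, 1024 in shMETTL3, 751 in shcontrol and 586 in control, which is 1634 (shMETTL14), 1641 (shMETTL3), 1360 (shcontrol) and 587 (control) normalised PETs. All 3 senescent libraries lay above control, and the knockdowns lay close together. The ratio of shcontrol over control was 2.32 (2.08 to 2.59), that of shMETTL3 over shcontrol 1.21 (1.10 to 1.33) and that of shMETTL14 over shcontrol 1.20 (1.10 to 1.31). The control set has a single anchor of 80.85 kb over the 3′ part of ETS1, where the senescent set has several. With contacts inside 1 merged anchor left out, the ratio of shcontrol over control for the gene was 1.76 (1.56 to 1.98). For contacts of ETS1 with itself it was 6.19 (4.86 to 7.96) with all PETs and 2.43 (1.83 to 3.25) without those inside 1 merged anchor.

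The promoter of ETS1, taken as its 5′ end with 2500 bp on each side, had 276 PETs in shMETTL14, 187 in shMETTL3, 122 in shcontrol and 66 in control. Scaled, these are 294.7 (shMETTL14), 299.7 (shMETTL3), 221.0 (shcontrol) and 66.1 (control) normalised PETs. Control was lowest, at a ratio of shcontrol over control of 3.34 (2.46 to 4.58). The ratio to shcontrol was 1.33 (1.07 to 1.66) in shMETTL14 and 1.36 (1.07 to 1.72) in shMETTL3. With 10000 bp on each side, shcontrol over control was 5.09 (3.97 to 6.58), shMETTL14 over shcontrol 1.22 (1.05 to 1.43) and shMETTL3 over shcontrol 1.10 (0.925 to 1.30), the last with an interval that includes 1. The senescent anchor counted here spans chr11:128443195-128455868 and ends 1.58 kb inside the gene, whereas a control anchor at chr11:128455869-128458742 covers the 5′ end. That control anchor had only 12 PETs, while the control anchor at chr11:128444945-128455360, which overlaps the senescent one, had 56. At the merged anchor of these overlapping anchors, shcontrol over control was 3.94 (2.85 to 5.51). Promoter contacts with the rest of the window outside both genes, that is with flanking DNA, numbered 133 in shMETTL14, 74 in shMETTL3, 46 in shcontrol and 13 in control. Their ratio of shcontrol over control was 6.40 (3.40 to 12.9), and that of shMETTL14 over shcontrol 1.70 (1.21 to 2.44). Contacts of the promoter with ETS1 itself numbered 121 in shMETTL14, 95 in shMETTL3, 63 in shcontrol and 41 in control, with a ratio of shMETTL14 over shcontrol of 1.13 (0.828 to 1.56).

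The anchor just 5′ of ETS1, at chr11:128464825-128477535, had 289 PETs in shMETTL14, 138 in shMETTL3, 132 in shcontrol and 23 in control. Its log2 ratio of shcontrol over control was 3.32, on 12.71 kb of senescent and 5.56 kb of control anchor. Its loop with the promoter anchor, spanning 21.7 kb, was among the most frequent of the window and had 58 PETs in shMETTL14, 21 in shMETTL3 and 9 in shcontrol. This loop was 3.80-fold (1.87 to 8.72) as frequent in shMETTL14 as in shcontrol, and 2.06-fold (0.906 to 5.12) in shMETTL3. The other leading promoter loops ran to the anchors at chr11:128361512-128381289 and chr11:128382539-128397449 inside ETS1. The first of these had 28 PETs in shMETTL14, 27 in shMETTL3 and 19 in shcontrol, and the second 32 in shMETTL14, 21 in shMETTL3 and 18 in shcontrol. Their ratios of shMETTL14 over shcontrol were 0.869 (0.468 to 1.65) and 1.05 (0.571 to 1.98), with intervals that include 1.

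**Figure D2:**
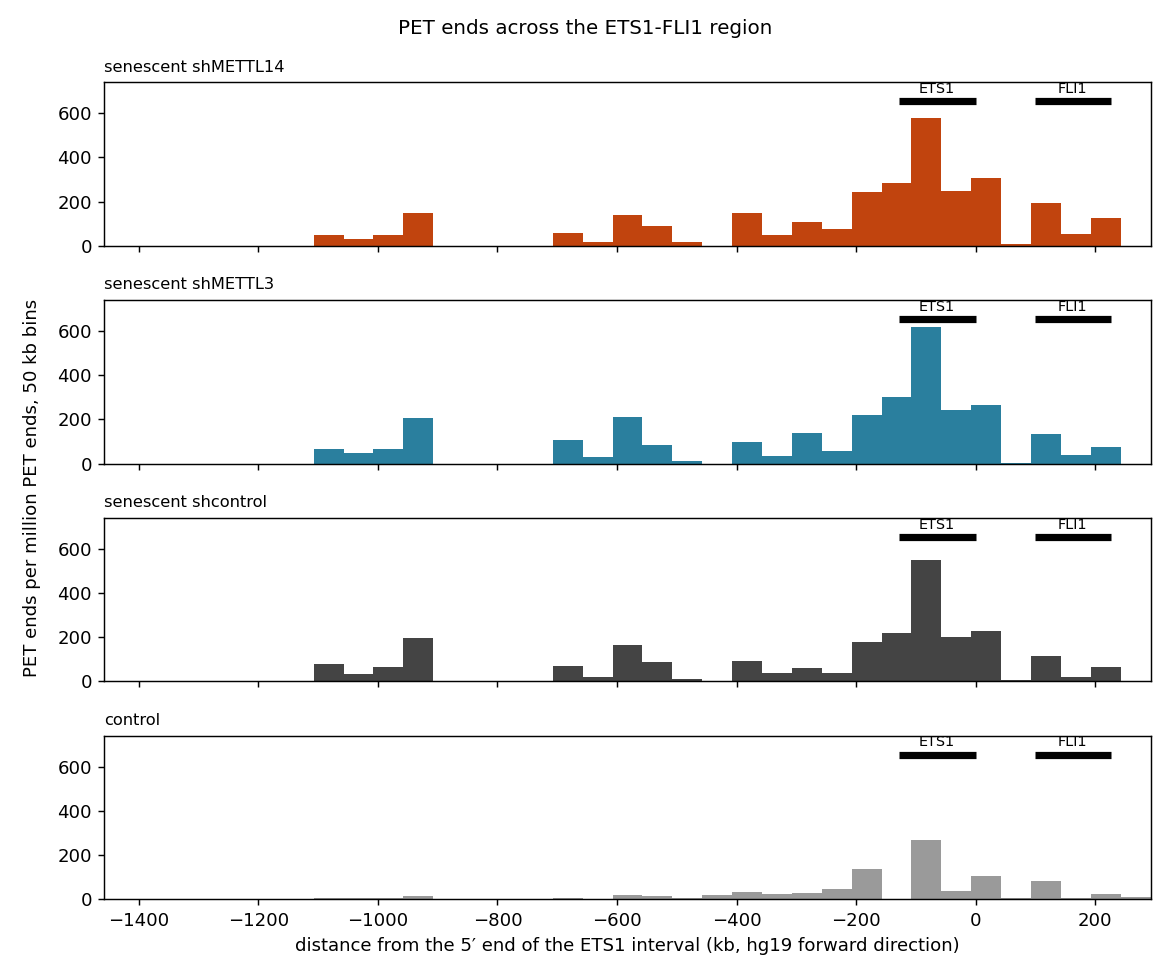
PET ends per 1000000 PET ends in 50 kb bins across the chromosome 11 window, placed by anchor midpoint, against distance from the 5′ end of ETS1 (kb), with 1 panel per library and bars marking the gene intervals. The clusters far to the left are present in the 3 senescent libraries and nearly flat in control; the empty control bin at the 3′ end of ETS1 lies under the 80.85 kb control anchor, whose midpoint falls in the next bin.

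Most of the chromosome 11 contacts outside the genes lay in the long stretch on the 3′ side of ETS1, in which no protein-coding gene lies up to KIRREL3 in the RefSeq order. This stretch had 1731 normalised PETs in shMETTL14, 1866 in shMETTL3, 1547 in shcontrol and 589.0 in control, a ratio of shcontrol over control of 2.63 (2.36 to 2.92). The difference from control was uneven along it. Split at position 128000000, a point chosen after the values were seen, the far part had 806.2 normalised PETs in shMETTL14, 1050 in shMETTL3, 952.8 in shcontrol and 126.2 in control. The part next to ETS1 had 1013 in shMETTL14, 916.8 in shMETTL3, 693.8 in shcontrol and 480.8 in control. The ratio of shcontrol over control was thus 7.55 (6.20 to 9.24) in the far part, where the senescent set covers 109.6 kb and the control set 55.5 kb, and 1.44 (1.26 to 1.65) near ETS1, with 72.6 and 81.3 kb covered. The ratio of shMETTL14 over shcontrol also differed, at 0.846 (0.756 to 0.948) far and 1.46 (1.30 to 1.65) near. For shMETTL3 over shcontrol it was 1.10 (0.981 to 1.24) far and 1.32 (1.16 to 1.51) near. The difference between parts was not tested beyond these intervals.

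The far part was joined mostly to itself. Contacts with both ends in it had 481.6 normalised PETs in shMETTL14, 684.4 in shMETTL3, 594.2 in shcontrol and 66.1 in control, a ratio of shcontrol over control of 8.99 (6.88 to 11.9). Contacts between it and the ETS1 gene numbered 123 PETs in shMETTL14, 111 in shMETTL3, 93 in shcontrol and 57 in control, a ratio of shcontrol over control of 2.95 (2.10 to 4.18). Its leading anchor, chr11:127505728-127530778, had 205 PETs in shMETTL14, 199 in shMETTL3, 174 in shcontrol and 26 in control. That anchor had a log2 ratio of shcontrol over control of 3.55, on 25.05 kb of senescent and 9.76 kb of control anchor. It had the highest such ratio of the window among anchors of both sets with at least 50 PETs. Its loop over 378 kb with chr11:127891280-127901400 had 11 PETs in shMETTL14, 28 in shMETTL3 and 20 in shcontrol. The ratio of shMETTL14 over shcontrol for this loop was 0.324 (0.140 to 0.710) and that of shMETTL3 over shcontrol 1.24 (0.673 to 2.32).

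Near ETS1, 3 anchors were among the highest for shMETTL3 over shcontrol. The anchor at chr11:128163458-128166343 had 68 PETs in shMETTL14, 63 in shMETTL3 and 22 in shcontrol, a log2 ratio of shMETTL3 over shcontrol of 1.32. Its neighbours at chr11:128178387-128184175 and chr11:128187091-128190225 stood at 1.17 and 1.02. None of these 3 overlaps a control anchor.

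FLI1 occupies chr11:128556430-128683162 and is read toward higher positions. PETs with an end in the gene numbered 467 in shMETTL14, 199 in shMETTL3, 143 in shcontrol and 182 in control, or 498.7 (shMETTL14), 318.9 (shMETTL3), 259.0 (shcontrol) and 182.3 (control) normalised PETs. The shMETTL14 library stood highest and control lowest. The ratio of shMETTL14 over shcontrol was 1.93 (1.59 to 2.34) and that of shMETTL14 over shMETTL3 1.56 (1.32 to 1.86). That of shMETTL3 over shcontrol was 1.23 (0.988 to 1.54) and that of shcontrol over control 1.42 (1.13 to 1.78). The anchors of the gene cover 29.81 kb in the senescent set and 30.93 kb in the control set. All 5 FLI1 anchors that met the minimum of 50 PETs had more normalised PETs in shMETTL14 than in shcontrol, with a median log2 ratio of 0.90 beside 0.01 over all anchors.

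Only the 5′ end of the FLI1 interval was used, and other starts of the gene were not located. No anchor lay within 2500 bp of that end in any library. The nearest began 5.28 kb inside the gene in both sets, and it had 75 PETs in shMETTL14, 37 in shMETTL3, 24 in shcontrol and 40 in control. Its shcontrol and control levels, 43.5 and 40.1 normalised PETs, did not differ beyond counting error (ratio 1.09, 0.626 to 1.84). The anchor at chr11:128603263-128606982 had 84 PETs in shMETTL14, 36 in shMETTL3 and 18 in shcontrol. Its log2 ratio of shMETTL14 over shcontrol, 1.43, was the highest in the window among anchors with at least 50 PETs over both libraries. The anchor at chr11:128673118-128678891, whose ends are identical in both sets, had 90 PETs in shMETTL14, 29 in shMETTL3, 26 in shcontrol and 23 in control, and its log2 ratio of shMETTL14 over shcontrol was 1.01. The FLI1 anchor with the most PETs, chr11:128576189-128587815, also has the same ends in both sets and had 241 PETs in shMETTL14, 95 in shMETTL3, 76 in shcontrol and 86 in control.

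Contacts between the ETS1 and FLI1 genes numbered 155 PETs in shMETTL14, 59 in shMETTL3, 37 in shcontrol and 62 in control. Scaled, shMETTL14 had 165.5 normalised PETs, shMETTL3 94.6, shcontrol 67.0 and control 62.1. They were 2.47-fold (1.72 to 3.64) as frequent in shMETTL14 as in shcontrol and 1.75-fold (1.29 to 2.40) as frequent as in shMETTL3, whereas shcontrol over control was 1.08 (0.698 to 1.65). Called loops between these genes, meaning interactions with 4 or more PETs whose deposited false discovery rate is 0.01 or lower, numbered 12 in shMETTL14, 4 in shMETTL3, 3 in shcontrol and 5 in control. After PETs of every library were thinned to 552029, 6 were left in shMETTL14 and 3 in each of the other libraries. The PETs of the stretch past FLI1 numbered 147 in shMETTL14, 65 in shMETTL3, 46 in shcontrol and 17 in control, a ratio of shMETTL14 over shcontrol of 1.88 (1.34 to 2.68).

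ERG occupies chr21:39751950-40033704 and is read toward lower positions. The gene itself carried few contacts, with 52 PETs in shMETTL14, 23 in shMETTL3, 16 in shcontrol and 18 in control. Its anchors cover 6.50 kb of 281.8 kb in the senescent set and 5.41 kb in the control set, and none of them is shared between the sets. Other annotated ERG starts were not placed on hg19, so only the 5′ end of the interval was used. No anchor lay within 10000 bp of that end in any library. The nearest lay 14.2 kb away in the senescent set and 71.5 kb away in the control set. The senescent one, chr21:40014972-40019493, had 41 PETs in shMETTL14, 19 in shMETTL3 and 13 in shcontrol. The ratio of shMETTL14 over shcontrol for the gene was 1.92 (1.08 to 3.59) and that of shMETTL14 over shMETTL3 1.51 (0.906 to 2.58).

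**Figure D3:**
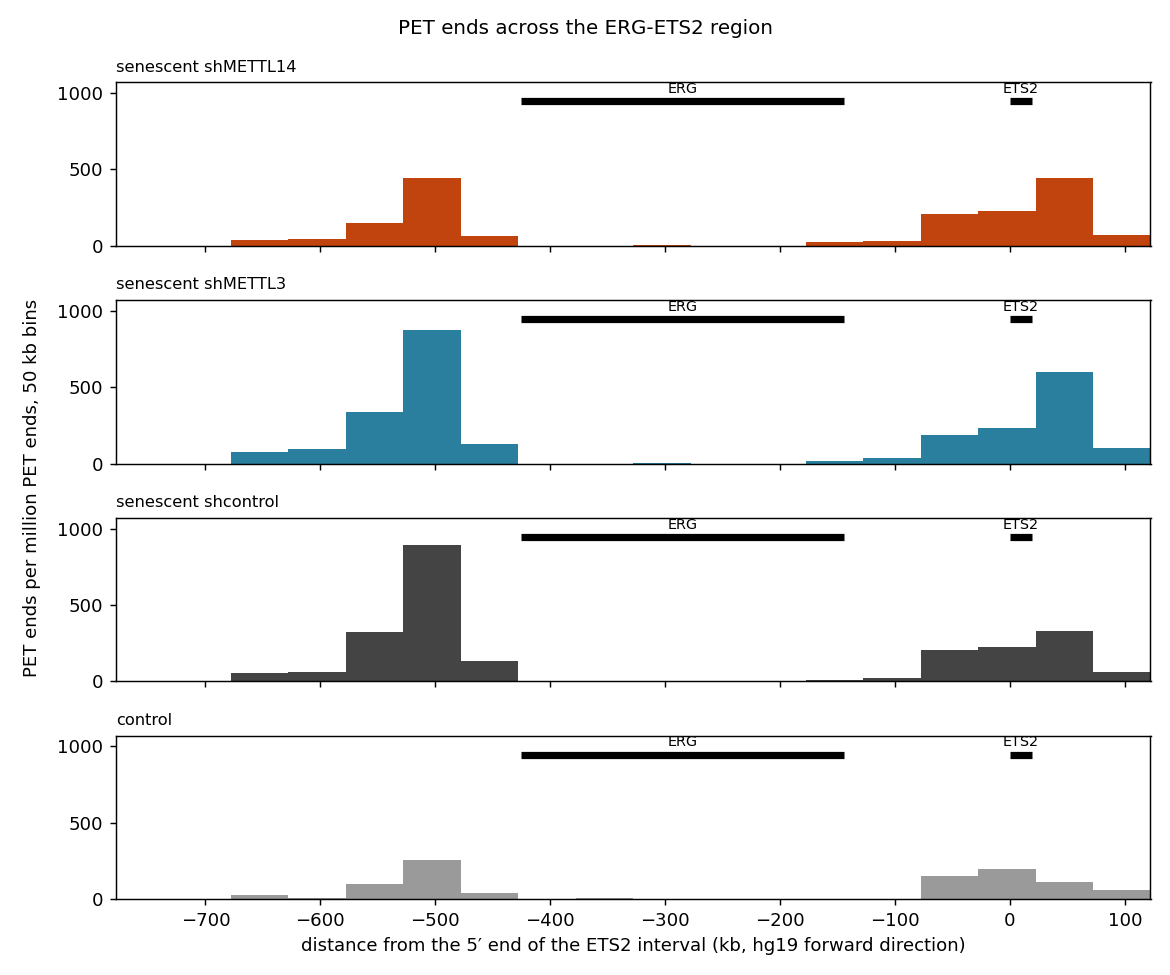
PET ends per 1000000 PET ends in 50 kb bins across the chromosome 21 window, placed by anchor midpoint, against distance from the 5′ end of ETS2 (kb), with 1 panel per library and bars marking the gene intervals. The tallest bins left of ERG reach 445.3 in shMETTL14, 874.3 in shMETTL3, 891.3 in shcontrol and 255.9 in control, while bins inside ERG are close to 0.

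The contacts that set the chromosome 21 window apart lay on the side of KCNJ15, which was not placed on hg19, so overlap with that gene was not checked. They lay beyond the 3′ end of ERG and are described by position because the files do not tie them to a gene. Here 857 PETs were counted in shMETTL14, 1082 in shMETTL3, 939 in shcontrol and 542 in control, or 915.1 (shMETTL14), 1734 (shMETTL3), 1701 (shcontrol) and 542.9 (control) normalised PETs. The shMETTL3 and shcontrol levels were alike, with a ratio of 1.02 (0.933 to 1.11), and shMETTL14 lay between them and control. The ratio of shcontrol over control was 3.13 (2.82 to 3.49), that of shMETTL14 over shcontrol 0.538 (0.490 to 0.591) and that of shMETTL14 over shMETTL3 0.528 (0.482 to 0.578). The covered length was 98.98 kb in the senescent set and 84.38 kb in the control set. Contacts with both ends in this stretch numbered 538 PETs in shMETTL14, 802 in shMETTL3, 676 in shcontrol and 337 in control. Their ratio of shMETTL14 over shcontrol was 0.469 (0.418 to 0.526), against 0.674 (0.552 to 0.823) for contacts from the stretch to anchors outside the window. Only 10 PETs in shMETTL14, 3 in shMETTL3, 4 in shcontrol and 2 in control joined the stretch to the ERG gene.

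The stretch is led by the anchor at chr21:39638635-39684415, with 581 PETs in shMETTL14, 767 in shMETTL3, 690 in shcontrol and 386 in control. In the senescent set it is a single anchor of 45.78 kb, while the control set divides it, so contacts inside it are counted in control only. The anchor next to it, chr21:39628244-39637507, has the same ends in both sets. It had 174 PETs in shMETTL14, 240 in shMETTL3, 219 in shcontrol and 71 in control, or 185.8 (shMETTL14), 384.7 (shMETTL3), 396.7 (shcontrol) and 71.1 (control) normalised PETs. There the log2 ratio was 2.46 for shcontrol over control and -1.09 for shMETTL14 over shcontrol. Of its 219 PETs in shcontrol, 146 joined the leading anchor, which the sets divide differently, and the part of that difference in the ratio to control was not tested. The most frequent loop of the stretch joined the leading anchor with chr21:39687685-39703569 over 34.1 kb and had 141 PETs in shMETTL14, 203 in shMETTL3 and 189 in shcontrol. Its ratio of shMETTL14 over shcontrol was 0.440 (0.351 to 0.550), and the ratio of shMETTL3 over shcontrol was 0.950 (0.776 to 1.16). The next 3 loops of the stretch had ratios of shMETTL14 over shcontrol of 0.468, 0.465 and 0.305. The 3 most frequent loops of the leading anchor over more than 300 kb had few PETs and wide intervals. The one with the ETS2 anchor, over 526 kb, had 18 PETs in shMETTL14, 13 in shMETTL3 and 13 in shcontrol, and a ratio of shMETTL14 over shcontrol of 0.816 (0.378 to 1.81). The ratio was 0.337 (0.122 to 0.860) for the loop over 664 kb and 0.442 (0.126 to 1.45) for the loop over 552 kb.

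ETS2 occupies chr21:40177755-40196878 and is read toward higher positions. It lies wholly inside 1 anchor in each set, 23.52 kb long in the senescent and 26.56 kb in the control set, so values for the gene and its promoter are the same. That anchor had 421 PETs in shMETTL14, 288 in shMETTL3, 248 in shcontrol and 335 in control, or 449.6 (shMETTL14), 461.6 (shMETTL3), 449.3 (shcontrol) and 335.5 (control) normalised PETs. The senescent libraries were level, with ratios to shcontrol of 1.00 (0.853 to 1.18) in shMETTL14 and 1.03 (0.864 to 1.22) in shMETTL3, and control was lower at a ratio of shcontrol over control of 1.34 (1.13 to 1.58). Summed over the senescent libraries, its most frequent partner was the anchor downstream at chr21:40208640-40219303, with 64 PETs in shMETTL14, 40 in shMETTL3 and 28 in shcontrol. In shcontrol alone the upstream partner at chr21:40138337-40147309 had more, with 46 PETs in shMETTL14, 21 in shMETTL3 and 32 in shcontrol. Partners outside the window gave 157 PETs in shMETTL14, 121 in shMETTL3, 96 in shcontrol and 151 in control. The ETS1 promoter had 5 such PETs in each of the senescent libraries and 7 in control. These counts depend on where each window ends, which is 103.1 kb past ETS2 on its downstream side. The ETS2 partner chr21:40317199-40333288, for instance, counted as outside at a span of 137.7 kb. The promoters were therefore not compared on these counts.

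Of the chromosome 21 stretches, the one downstream of ETS2 had the highest ratio of shMETTL3 over shcontrol. It had 807.3 normalised PETs in shMETTL14, 1053 in shMETTL3, 634.0 in shcontrol and 308.5 in control. The ratio of shMETTL3 over shcontrol was 1.66 (1.46 to 1.90), that of shMETTL14 over shcontrol 1.27 (1.12 to 1.45) and that of shcontrol over control 2.06 (1.76 to 2.40). Contacts with both ends in the stretch numbered 211 PETs in shMETTL14, 219 in shMETTL3, 81 in shcontrol and 40 in control, a ratio of shMETTL3 over shcontrol of 2.39 (1.85 to 3.13). The loop between chr21:40208640-40219303 and chr21:40220739-40228136 had 55 PETs in shMETTL14, 66 in shMETTL3 and 22 in shcontrol, and was 2.65-fold (1.62 to 4.52) as frequent in shMETTL3 as in shcontrol. Between ERG and ETS2 the senescent libraries differed little, with 404.7 normalised PETs in shMETTL14, 386.3 in shMETTL3, 396.7 in shcontrol and 315.5 in control.

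Anchors were also counted one by one by a size rule, which asks for at least a 2-fold difference on log2 of normalised PETs plus 1, an interval that excludes a ratio of 1 and at least 50 PETs over both libraries. For shcontrol over control, only merged anchors of both sets were counted. This left out 15 senescent-only and 15 control-only anchors on chromosome 11, and 9 and 10 on chromosome 21. Of those counted, 14 of 21 on chromosome 11 and 8 of 12 on chromosome 21 were higher and none lower. Over the genome 15.3% were higher and 15.4% lower. Median log2 ratios were 1.37 on chromosome 11 and 1.80 on chromosome 21, beside 0.00 over all anchors counted. For shMETTL3 over shcontrol, 3 of 32 on chromosome 11 and 1 of 17 on chromosome 21 were higher and none lower, beside 1.86% higher and 1.32% lower over the genome. For shMETTL14 over shcontrol, 2 of 35 on chromosome 11 were higher, both in FLI1, and 4 of 18 on chromosome 21 were lower, all in the stretch 3′ of ERG, beside 2.79% higher and 1.37% lower over the genome. All 8 anchors counted in that stretch lay below a log2 ratio of 0, with a median of -0.99. For shMETTL14 over shMETTL3, 1 of 36 on chromosome 11 was higher and 1 lower, and 6 of 19 on chromosome 21 were lower, beside 2.03% higher and 1.11% lower over the genome. Since the windows were chosen on these counts, nothing is read from the shares. In fixed bins of 50 kb, with at least 100 PET ends, 10 of 13 bins on chromosome 11 and 4 of 8 on chromosome 21 were higher in shcontrol than in control, beside 14.5% over the genome. The chromosome 11 count includes the bin at the 3′ end of ETS1, with 241 PET ends in shcontrol and 0 in control, which is empty in control because the midpoint of the wide control anchor falls in the next bin.

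**Figure D4:**
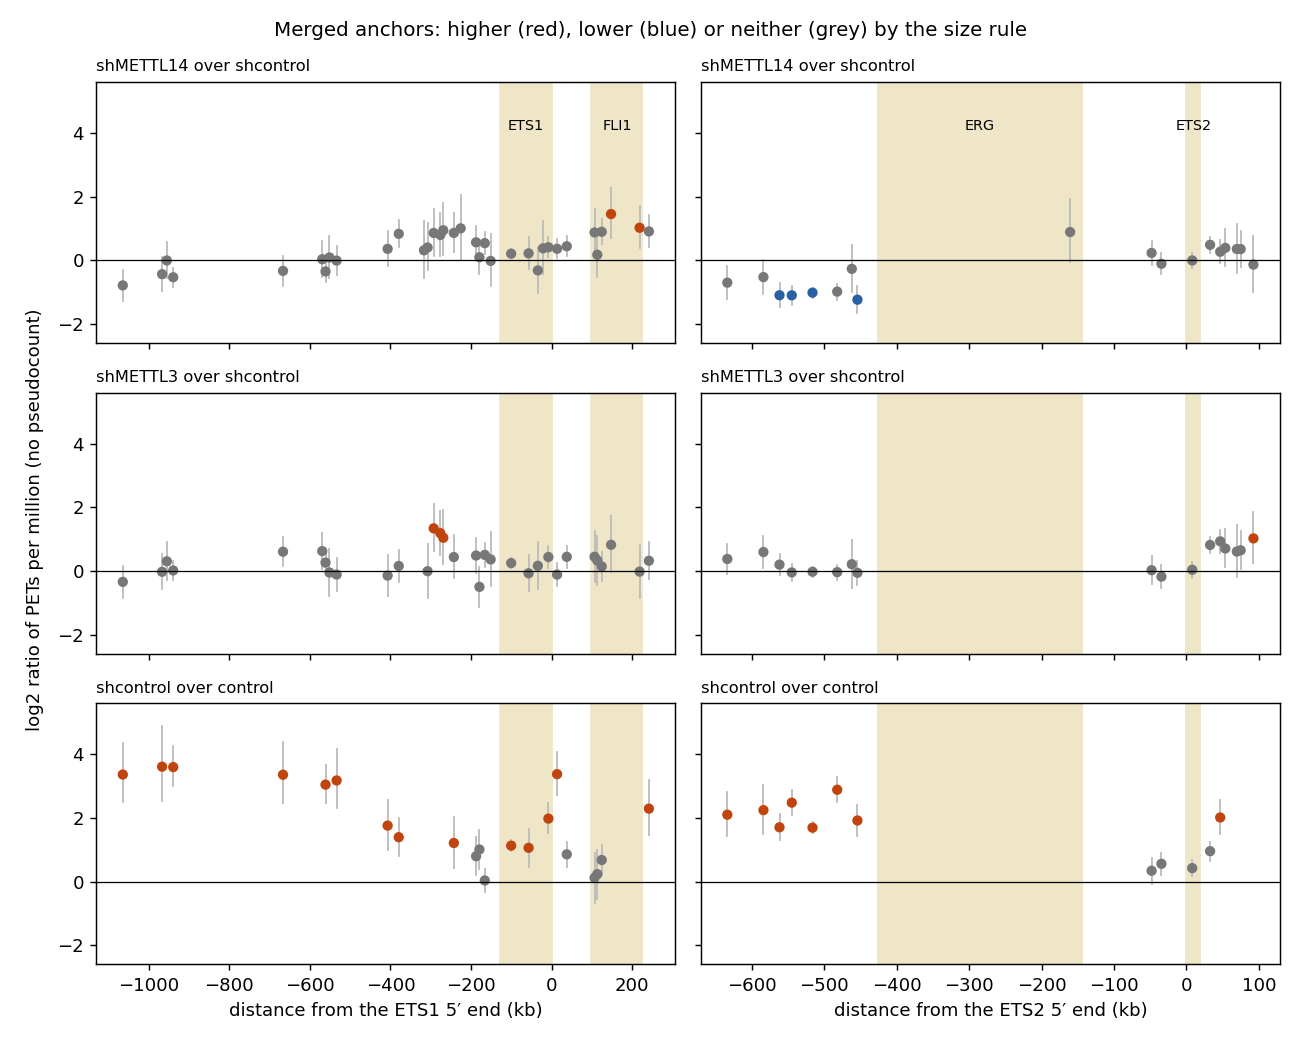
Log2 ratio of normalised PETs at each merged anchor with at least 50 PETs over both libraries, against distance (kb) from the 5′ end of ETS1 (left) or ETS2 (right), with exact 95% intervals for counting error; shaded bands are the genes. In the top row the 2 red points lie in FLI1 and the 4 blue points lie left of ERG. The bottom row holds only merged anchors of both sets. Every point there lies above 0, with values over 3 at the far left of the chromosome 11 window.

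On chromosome 11 the called loops numbered 125 in shMETTL14, 86 in shMETTL3, 58 in shcontrol and 34 in control, and after thinning 86 in shMETTL14, 77 in shMETTL3, 58 in shcontrol and 26 in control. On chromosome 21 there were 71 in shMETTL14, 74 in shMETTL3, 49 in shcontrol and 49 in control, and after thinning 53 in shMETTL14, 70 in shMETTL3, 49 in shcontrol and 32 in control. Called loops made up 14.9% of the listed chromosome 11 interactions in shMETTL14, 13.3% in shMETTL3, 10.6% in shcontrol and 8.97% in control. On chromosome 21 the share was 14.7% in shMETTL14, 17.5% in shMETTL3, 13.1% in shcontrol and 10.4% in control. Over each whole library 5.62% of listed interactions were called in shMETTL14, 5.50% in shMETTL3, 5.17% in shcontrol and 5.79% in control. Within the stretch 3′ of ETS1, thinned loops numbered 18 in shMETTL14, 20 in shMETTL3, 15 in shcontrol and 1 in control. Shares over the whole library were not computed after thinning. The median span per PET on chromosome 11 was 108.7 kb in shMETTL14, 104.8 kb in shMETTL3, 104.6 kb in shcontrol and 141.2 kb in control. On chromosome 21 it was 78.8 kb in shMETTL14, 62.8 kb in shMETTL3, 62.0 kb in shcontrol and 109.2 kb in control. Whole-library medians ran from 69.7 kb in shMETTL3 to 86.6 kb in control. On chromosome 11, PETs inside 1 merged anchor made up 11.2% in shMETTL14, 13.2% in shMETTL3, 12.8% in shcontrol and 1.01% in control. On chromosome 21 they made up 2.03% in shMETTL14, 2.07% in shMETTL3, 0.854% in shcontrol and 8.71% in control. The part of this difference between anchor sets in the median spans was not tested.

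Among 1216 windows of 1 Mb with at least 1000 PETs, those with the most similar profile over the 4 libraries were found by Euclidean distance of centred log2 normalised PETs. The ETS1 and FLI1 window had centred values of 0.48 in shMETTL14, 0.49 in shMETTL3, 0.23 in shcontrol and -1.20 in control. Its nearest windows were chromosome 15 from 32 to 33 Mb (distance 0.072), chromosome 8 from 82 to 83 Mb (0.090) and chromosome 1 from 66 to 67 Mb (0.17). The ERG and ETS2 window had -0.03 in shMETTL14, 0.52 in shMETTL3, 0.32 in shcontrol and -0.81 in control. Its nearest windows were chromosome 17 from 66 to 67 Mb (0.12), chromosome 14 from 91 to 92 Mb (0.13) and chromosome 7 from 104 to 105 Mb (0.17). The ETS1 and FLI1 window is 1.75 Mb long and the ERG and ETS2 window 0.9 Mb, so they differ in size from the 1 Mb windows. These distances rest on 4 libraries and describe likeness of counts alone.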

How the data were processed

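H3K27ac HiChIP contacts were measured in 4 IMR90 libraries, 1 per group. Per the labels' protocols, formaldehyde fixation was followed by MboI digestion and Tn5 tagmentation. Per the submitters' processing notes, HiC-Pro 3.1.0 and hg19 were used; the interaction caller was not given in the sources used here. The deposited files have 8 columns and no header. The seventh was read from its values as the deposited count of PETs, a raw count, and the eighth as a false discovery rate (q-value) that the authors gave each interaction, although no source used here names that column.

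Interactions overlapping either window were counted once each and scaled to the library total (pandas 2.3.3, scipy 1.17.1, Python 3.11.15). A promoter was the 5′ end of the gene interval with 2500 bp on each side, with strands of ERG and ETS2 from RefSeq and of ETS1 and FLI1 from general knowledge. Overlapping anchors of all libraries were merged. Anchor by anchor, control was compared with shcontrol over merged anchors of both sets; ratios of windows, stretches, genes and distal contacts use all listed anchors. Thinning used seed 1 and kept each deposited false discovery rate. The size rule was tested on simulated data. Named anchors were, in each window, the 5 with the most PETs and, per comparison, the 3 highest and 3 lowest log2 ratios; loops were the leading ones of each window and promoter. Alternatives used edgeR 4.0.16 (TMM) and DESeq2 1.42.0 (size factors) for scaling only, in R 4.3.3. The members and lists were chosen with earlier results of these data known. No hg19 annotation was used, so other ETS family genes were not analysed here.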

Additional observations from a re-analysis of the deposited data

How the results depend on the processing

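Alternatives were run for window totals, distal contacts, the ETS1 and ETS2 promoters, anchor counts and called loops. Ratios of stretches, genes, contacts between genes and single loops were not rerun under other scalings. Of the ratios that were rerun, none whose reported interval excludes 1 changed direction. In 14 cases a ratio moved to the other side of 1, with values of 0.963 to 1.11, and both the reported and the alternative interval included 1 in all 14. These were shMETTL14 over shMETTL3 on chromosome 11 (window and distal contacts) and at the ETS1 and ETS2 promoters, and each knockdown over shcontrol at the ETS2 promoter. No paired analysis was possible because each group is 1 library. For the same reason no replicate was left out.

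The ratio of shcontrol over control on chromosome 11 was 2.47 with TMM, 2.45 with DESeq2 size factors, 3.10 scaled to the same chromosome outside the window, 2.35 per covered kb, 2.43 for spans of at least 20 kb, 2.999 with both ends in the window and 2.37 without pairs inside 1 merged anchor, an alternative chosen after seeing the data. Its distal contacts gave 2.42, 2.40, 3.05, 2.31, 2.36 and 2.30 under the same settings other than both ends in the window. On chromosome 21 the window gave 2.00 with TMM, 1.98 with DESeq2 size factors, 2.02 per covered kb, 2.55 over anchors of both sets, 2.38 for spans of at least 20 kb, 2.47 for interactions of at least 2 PETs, 2.73 with both ends in the window and 2.37 without pairs inside 1 merged anchor. Its distal contacts gave 2.26 with DESeq2 size factors, 2.98 over anchors of both sets, 2.84 for spans of at least 20 kb, 3.01 for at least 2 PETs and 2.79 without pairs inside 1 merged anchor. The ETS1 promoter with 10000 bp on each side gave 5.09, and there shMETTL3 over shcontrol was 1.10 (0.925 to 1.30), an interval that includes 1.

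Over anchors of both sets, shMETTL3 over shcontrol on chromosome 11 was 1.12, or 1.09 for distal contacts. For interactions of at least 2 PETs, shMETTL14 over shcontrol on chromosome 11 was 1.31, or 1.29 for distal contacts. On chromosome 21 it was 0.713 over anchors of both sets (0.658 for distal contacts) and 0.709 with both ends in the window, where shMETTL14 over shMETTL3 was 0.609. With a minimum of 200 PETs the anchors past the size rule in both windows numbered 6 higher in shcontrol than in control, 0 higher in shMETTL3 and 0 in shMETTL14 than in shcontrol, and 0 higher and 3 lower in shMETTL14 than in shMETTL3; fewer anchors meet that minimum. With a pseudocount of 5 normalised PETs, 2 were higher in shMETTL3 and 1 in shMETTL14 than in shcontrol, and 0 in shMETTL14 than in shMETTL3, which TMM also gave as 0. Thinning left 32 control loops on chromosome 21. The cause of each shift was not tested unless stated. Another 225 values moved by less than their counting interval or, for counts, by less than the limit used. Depth limits ERG most, with at most 52 PETs in a library.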
